A study of Mus musculus with 12 samples.

Results

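A set of 38 genes that fold, check and export secreted proteins in the endoplasmic reticulum (ER), or that sense stress there, was examined in mouse pre-osteoblasts. The genes were listed by name across 7 branches: 11 chaperones and their partners, 4 disulfide isomerases, 3 prolyl isomerases, 6 stress sensors and membrane-bound transcription factors, 7 genes of ER-associated degradation, 2 subunits of the translocation channel, and 5 genes of the COPII coat and its collagen cargo receptor. Of the 39032 genes in the deposited table, 37 carry these symbols, and Mia3, the collagen cargo receptor at ER exit sites, was not analysed here. With a minimum of 1 FPKM (fragments per kilobase of transcript, scaled to the mapped fragments of the library) in at least 3 libraries, 36 members were among the 11548 genes tested. These 36 stood at 2.55 FPKM or more in every library, so none entered through a single arm. Derl3, a channel component of ER-associated degradation, was listed between 0 and 0.09 FPKM and was not tested.

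Proteins bound for the cell surface or the matrix enter the ER through the Sec61 channel, are folded by chaperones such as BiP (Hspa5) and GRP94 (Hsp90b1), and receive disulfide bonds from protein disulfide isomerases. Unfolded protein is sensed by IRE1 (Ern1), PERK (Eif2ak3) and ATF6, which raise chaperone and degradation genes, slow translation or splice the mRNA of Xbp1. Osteoblasts secrete type I collagen in bulk, and its folding and export need the prolyl isomerases cyclophilin B (Ppib) and FKBP65 (Fkbp10), the COPII subunits Sec23a and Sec24d, and OASIS (Creb3l1), a membrane-bound transcription factor that acts on the type I collagen gene in bone.

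The cells were MC3T3-E1 subclone 14, a single clone of a mouse calvarial pre-osteoblast line of wild-type genotype, so the replicates share 1 cell source. All were grown for 5 days in osteogenic medium with ascorbic acid phosphate and β-glycerophosphate, in 4 arms of 3 replicates labelled as biologically independent, or 12 libraries. The Control arm received vehicle, the RSPO2 arm recombinant mouse R-spondin 2 (an enhancer of Wnt signalling) at 200 ng/ml, the BMP2 arm recombinant bone morphogenetic protein 2 at 100 ng/ml, and the BMP2+RSPO2 arm both proteins at these doses. Poly(A) RNA was sequenced, and with FPKM alone the depth is unknown. All 8 osteoblast markers examined were present in every library, with Sp7, an osteoblast transcription factor, at 61.8 FPKM or more. The 4 adipocyte and 4 skeletal muscle markers all stayed under 1 FPKM. Of 3 endothelial markers, Cdh5 reached 3.89 FPKM and Pecam1 1.38, and of 4 blood and macrophage markers Cd68 lay between 0.52 and 4.00 while Ptprc and Adgre1 were at 0. Of the plasma cell markers, Jchain was at 0 in all libraries and Sdc1, which other cell types also carry, lay between 25.4 and 62.7 FPKM. In RNA from whole cultures, fewer cells of a kind and less RNA per cell cannot be told apart.

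One library stood apart. Transcripts of RNA polymerase III took 19.1% of the summed FPKM in BMP2+RSPO2 replicate 1, against 0.179% to 2.30% elsewhere, and its FPKM summed to 635139, against 322074 to 380507. Whether either feature bears on the members was not tested, and values without this library are given for some members. Replicate 1 of each arm also had the highest proliferation genes of that arm, for example a median of 49.9 FPKM in Control against 12.4 and 14.0, and its part in the results was not tested. Across all genes tested, the median log2 change of BMP2+RSPO2 against Control was -0.26 (log2 of FPKM + 1), against BMP2 -0.19 and against RSPO2 -0.26, so a typical gene read lower in the combination. Member values are therefore given on the deposited scale and again after median-of-ratios scaling, which sets each library's typical gene to a common level. The median of all genes against Control was -0.03 after that scaling.

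RSPO2 alone left the 36 members without a call. Tested with limma on log2(FPKM + 1), with Benjamini-Hochberg adjustment over all genes and an adjusted p under 0.05 as the call, 0 members rose and 0 fell, and 0 had an unadjusted p under 0.05. Across all genes, 0.0779% were called, 9 genes in all. The members' log2 changes lay between -0.21 (Fkbp7) and 0.19 (Atf6), and every 95% confidence interval lay between -0.55 and 0.51. The libraries of the 2 arms did not overlap for Atf6, higher with RSPO2, and for Fkbp7, lower, which is 2.78% of the members each, against 5.81% and 3.52% of all genes.

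BMP2 alone also gave 0 calls among the members in limma, against 1.52% of all genes, with 3 members at an unadjusted p under 0.05. Hspa5 had a log2 change of -0.29 (adjusted p = 0.467), Ern1 of 0.24 (adjusted p = 0.429) and Creb3l1 of 0.47 (adjusted p = 0.45). Values without overlap between the arms were seen for 2 members on the higher side, Ern1 and Creb3l1, and 4 on the lower side, Hspa5, Hyou1, Sec61b and Sec24d. These are 5.56% and 11.1% of the members, against 6.23% and 14.6% of all genes. The 95% confidence intervals of the members together spanned -0.77 (Sec61b) to 0.91 (Creb3l1).

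With both proteins, 2 genes of the sensor branch rose and 6 genes of folding and ER entry fell. Against Control, 8 of the 36 were called (22.2%), against 23% of all genes, so the share called was near the background. Creb3l1 and Ern1 were the rises, and Hspa5, Hsp90b1, Sdf2l1, Pdia4, Ppib and Sec61b the falls. The 2 rises are 5.56% of the members against 3.65% of all genes, and the 6 falls 16.7% against 19.4%. The median over the members was -0.09, against -0.26 over all genes. After median-of-ratios scaling 11 members rose and 1 fell (30.6% and 2.78%, against 7.34% and 7.35% of all genes, 14.7% together), and after quantile normalization 9 rose and 0 fell (all genes 6.93% and 7.15%, 14.1% together). On the rescaled values, falls other than that of Ppib were no longer called, and Ppib was not called under quantile normalization (adjusted p = 0.133). Without BMP2+RSPO2 replicate 1, 5 members rose and 7 fell on the deposited scale (all genes 5.25% and 18.8%, 24% together), and 12 rose and 0 fell after median-of-ratios scaling (all genes 9.26% and 7.96%). In the same comparison 15 members lay wholly below Control and 6 wholly above it (41.7% and 16.7%, against 37.3% and 6.68% of all genes).

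**Figure D1:**
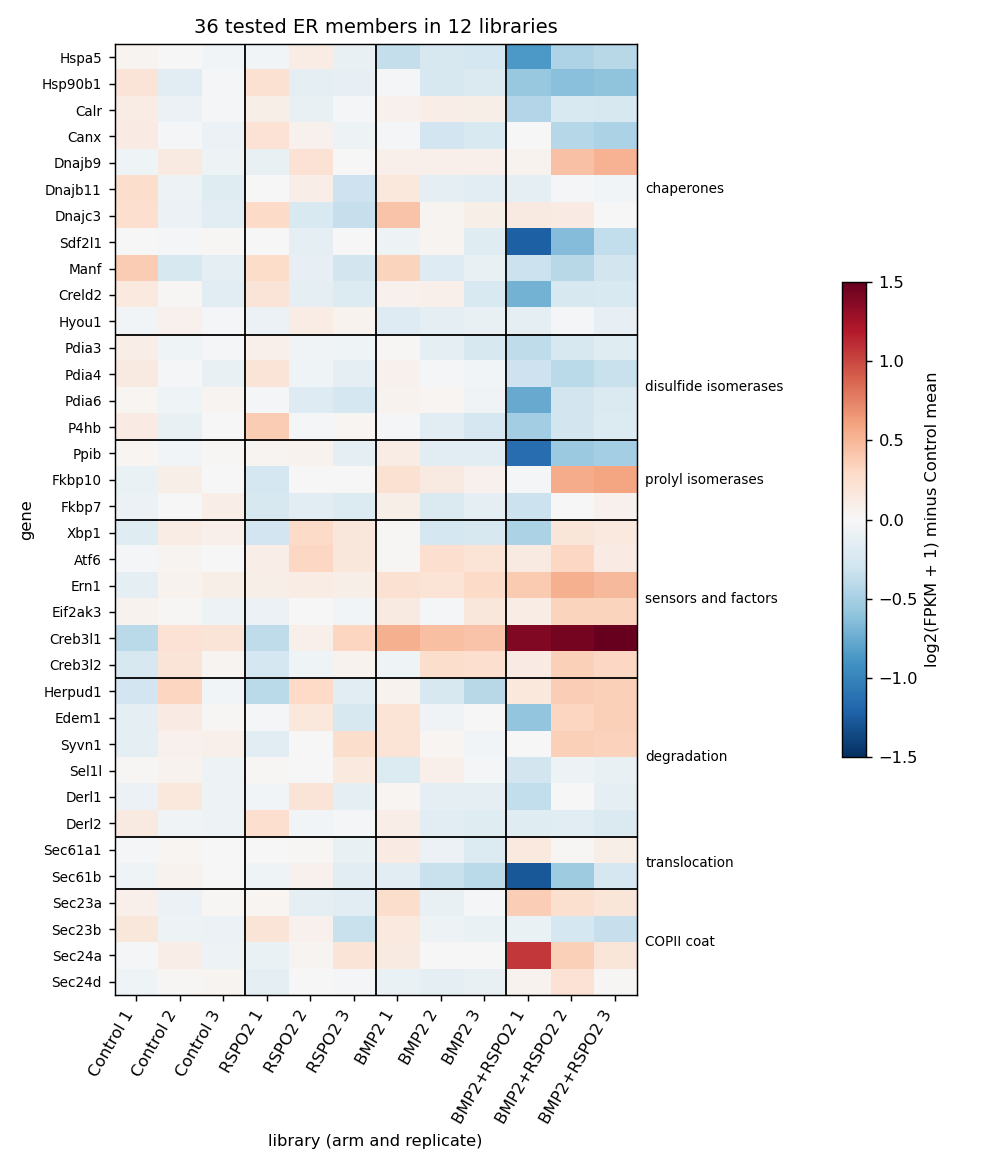
Heat map of the 36 tested members (vertical axis, grouped by branch) in the 12 libraries (horizontal axis), with colour giving log2(FPKM + 1) minus the Control mean. Creb3l1, with a mean change of 1.44, is the darkest red in all 3 BMP2+RSPO2 libraries, and Hspa5, Hsp90b1, Sdf2l1 and Ppib are blue in the same libraries, most of all in replicate 1 for Sdf2l1 and Ppib.

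Promoter motifs of the ER stress response are shown here because 9 members, 6 of them chaperones, share 1 of them. The ER stress response element (ERSE) starts with a CCAAT box. After a spacer of 9 free bases it ends in the element that ATF6 is known to bind, with the letters CCACG. It was searched on both strands of the RefSeq promoter windows of GRCm38.p6, which run from 250 bases before to 50 bases after each gene's start. Windows, 33 in all, were found for 31 of the 38 members. The motif lay in 9 of these 31 genes (29%), in 1 of 115 other ER and secretory genes with a window (0.87%), and in 37 of all 27025 genes with a window (0.137%). By window, it lay in 0.119% of all 32851. The members were listed by name, so these shares are a description, and they were not tested. Each stretch reads 5′ to 3′ in the direction of the gene, with the fixed motif letters in capitals and 5 bases on each side, and the motif on the opposite strand reads CGTGG first.
Hspa5, chr2:34772020-34772048, plus strand, motif 65 to 47 bases before the start: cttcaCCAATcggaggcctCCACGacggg
Hsp90b1, chr10:86705633-86705661, minus strand, motif 212 to 194 bases before the start: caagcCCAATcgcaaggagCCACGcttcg
Hsp90b1, chr10:86705528-86705556, minus strand, motif 107 to 89 bases before the start: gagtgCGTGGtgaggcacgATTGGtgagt
Calr, chr8:84847070-84847098, minus strand, motif 162 to 144 bases before the start: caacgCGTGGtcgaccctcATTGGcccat
Canx, chr11:50325795-50325823, minus strand, motif 145 to 127 bases before the start: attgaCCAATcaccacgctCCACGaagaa
Creld2, chr15:88819515-88819543, plus strand, motif 126 to 108 bases before the start: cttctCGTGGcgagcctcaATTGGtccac
Dnajc3, chr14:118937822-118937850, plus strand, motif 105 to 87 bases before the start: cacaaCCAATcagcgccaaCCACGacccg
Pdia6, chr12:17266486-17266514, plus strand, motif 98 to 80 bases before the start: agagaCCAATgaaaggcggCCACGgcgtg
Syvn1, chr19:6046527-6046555, plus strand, motif 44 to 26 bases before the start: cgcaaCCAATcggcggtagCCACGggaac
Derl3, chr10:75893237-75893265, plus strand, motif 156 to 138 bases before the start: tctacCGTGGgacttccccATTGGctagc

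Hsp90b1 held the motif at 2 places, once in each direction. The related ERSE-II (ATTGG, 1 free base and CCACG), which carries the same CCACG letters beside a reversed CCAAT box, was found for 2 members, Dnajb11 and Herpud1, and in 0.0365% of all windows. The UPR element (UPRE, TGACGTGG), which XBP1 and ATF6 are known to bind and which holds CCACG in reverse, was found for Sec23a and Sec24d, 6.06% of the member windows against 8.45% of those of the other ER and secretory genes and 0.676% of all windows. The Herpud1 and Sec24d matches lie before the start of the gene.
Herpud1, chr8:94386372-94386392, plus strand, motif 52 to 42 bases before the start: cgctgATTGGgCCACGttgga
Sec24d, chr3:123267465-123267482, plus strand, motif 26 to 19 bases before the start: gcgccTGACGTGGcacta

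A match describes letters in these windows and is not evidence of binding in these cells. The 8 tested members with an ERSE did not share a direction: against Control with both proteins, their log2 changes ran from -0.60 (Hsp90b1) to 0.23 (Syvn1), with a median of -0.35, 0 rises and 2 falls. The 21 tested members with a window and no ERSE ran from -0.75 to 0.54, with a median of -0.07, 1 rise and 4 falls. After median-of-ratios scaling the medians were -0.07 and 0.21, with 1 rise and 0 falls against 6 rises and 1 fall. Of all genes, 3.65% rose and 19.4% fell on the deposited scale, and 7.34% rose and 7.35% fell after that scaling. No test of the difference between these groups was made.

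Among the chaperones, 3 of 11 fell with both proteins and 0 rose on the deposited scale, where 19.4% of all genes fell and 3.65% rose. Hspa5 measured 79.3, 77.2 and 74.9 FPKM in Control replicates 1, 2 and 3, 75.1, 83.4 and 71.4 under RSPO2, 59.96, 64.95 and 64.1 under BMP2 and 42.05, 55.85 and 57.6 under the combination. Hspa5 encodes BiP, the Hsp70 chaperone of the ER lumen. Every BMP2+RSPO2 library lay below every other library, and the BMP2 libraries lay below those of Control and RSPO2. The mean of 51.8 ± 8.53 FPKM (SD, n = 3) against 77.2 ± 2.21 in Control gave a log2 change of -0.58 (SE 0.12, limma adjusted p = 0.0093). For Hsp90b1, the Control libraries read 278, 217 and 238 FPKM, the RSPO2 libraries 286, 222 and 224, the BMP2 libraries 238, 205 and 209 and the BMP2+RSPO2 libraries 164, 157 and 160.1, in replicate order. Hsp90b1 encodes GRP94, the Hsp90 chaperone of the ER, and its BMP2+RSPO2 libraries again lay below all 9 others, with little spread. The change against Control was -0.60 (SE 0.13, limma adjusted p = 0.0109), and Control replicate 1 was the highest of its arm.

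In replicate order, Sdf2l1 stood at 13.8, 13.6 and 13.95 FPKM in Control, 13.9, 12.4 and 13.7 under RSPO2, 13.0, 14.2 and 12.1 under BMP2 and 5.35, 8.41 and 10.4 under both. Sdf2l1 pairs with the BiP co-chaperone ERdj3 (Dnajb11), and all 3 BMP2+RSPO2 libraries were below the other 9, with replicate 1 the lowest. Its mean was 8.07 ± 2.56 FPKM (SD, n = 3) against 13.8 ± 0.196 in Control, a log2 change of -0.75 (SE 0.18, limma adjusted p = 0.0144). These 3 falls kept their call against Control in all 12 fits that left out 1 library. Some of these fits dropped a library of neither arm compared. Without BMP2+RSPO2 replicate 1, Hspa5 read -0.44 on the deposited scale (limma adjusted p = 0.00736), Hsp90b1 -0.61 (adjusted p = 0.0134) and Sdf2l1 -0.51 (adjusted p = 0.00927). The fit on only the 2 groups compared called 1 rise and 1 fall among the 36 members (10.1% of all genes were called). At most 1 of the 6 member falls therefore kept its call there. Taken against the all-gene median by median-of-ratios scaling, Hspa5 had a log2 change of -0.30 (adjusted p = 0.109), Hsp90b1 of -0.32 (adjusted p = 0.0756) and Sdf2l1 of -0.49 (adjusted p = 0.0782), so none of the 3 was called on that scale.

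Calr had 231, 200.4 and 210.5 FPKM in Control, 227, 198 and 211 after RSPO2, 224, 229.5 and 228 after BMP2 and 157, 182 and 180.4 after both proteins, in replicate order. Calr, the lectin chaperone calreticulin, was lower in every BMP2+RSPO2 library than in any other, but its change against Control of -0.30 did not pass the test (SE 0.10, adjusted p = 0.0606) and was -0.02 after rescaling. The other 7 chaperone members were not called on the deposited scale against Control. Their log2 changes ran from -0.39 for Creld2 to 0.34 for Dnajb9, with Manf at -0.33, Canx, the membrane-bound lectin chaperone, at -0.30, Hyou1 at -0.09, Dnajb11 at -0.07 and Dnajc3, an inhibitor of PERK, at 0.09. Dnajb9 (ERdj4), a co-chaperone that recruits BiP to IRE1, measured 7.62 ± 0.714 FPKM in Control and 9.96 ± 1.82 with both proteins (SD, n = 3). After rescaling it rose by 0.59 (limma adjusted p = 0.0167), and it was also called on the deposited scale without BMP2+RSPO2 replicate 1 (0.48, adjusted p = 0.0138), as was Canx in the other direction (-0.45, adjusted p = 0.0222). Summed over the 11 genes, the chaperones took 762 ± 70.0 FPKM in Control, 759.7 ± 72.1 under RSPO2, 722 ± 33.8 under BMP2 and 577 ± 13.6 under both (SD, n = 3).

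The disulfide isomerases gave 1 fall of 4 against Control, and all 4 had lower values in every BMP2+RSPO2 library than in any Control library, where 19.4% of all genes fell and 37.3% lay wholly below Control. Pdia4 measured 110.2, 98.9 and 93.1 FPKM in Control replicates 1, 2 and 3, 115, 96.0 and 90.95 under RSPO2, 105, 98.6 and 98.0 under BMP2 and 81.2, 76.0 and 79.85 under the combination. Pdia4 (ERp72) had its 3 BMP2+RSPO2 libraries below the other 9. The change was -0.34 (SE 0.11, limma adjusted p = 0.0472), close to the all-gene median. It was -0.06 after median-of-ratios scaling and 0.02 after quantile normalization, which turned the sign. The call was kept in 3 of the 12 fits that left out 1 library, those without RSPO2 replicate 1, RSPO2 replicate 3 or BMP2+RSPO2 replicate 1.

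For P4hb, the Control libraries read 570.3, 485 and 520.4 FPKM, the RSPO2 libraries 684, 512 and 533, the BMP2 libraries 513, 469 and 439 and the BMP2+RSPO2 libraries 364, 433 and 453, in replicate order. P4hb is protein disulfide isomerase itself and the β subunit of the prolyl 4-hydroxylase that modifies collagen, and RSPO2 replicate 1 was its highest library. It fell against RSPO2 (-0.46, SE 0.14, limma adjusted p = 0.0393) but did not pass against Control (-0.34, adjusted p = 0.115). The call against RSPO2 ended after rescaling and in 9 of the 12 fits that left out 1 library, among them those without RSPO2 replicate 1 (adjusted p = 0.138), and it was kept only without Control replicate 1, BMP2 replicate 1 or BMP2+RSPO2 replicate 3. In replicate order, Pdia3 stood at 268, 239 and 245 FPKM in Control, 264, 241 and 238 under RSPO2, 254, 226 and 212 under BMP2 and 191, 212 and 219.8 under both. Pdia3 (ERp57), the isomerase that works with calreticulin and calnexin, overlapped between BMP2+RSPO2 and BMP2 and not between BMP2+RSPO2 and Control, and its change of -0.27 against Control did not pass (adjusted p = 0.0991). Pdia6 ranged from 45.74 to 81.25 FPKM over all libraries, with its lowest value in BMP2+RSPO2 replicate 1 and a change of -0.42 against Control (adjusted p = 0.0556).

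Of the 3 prolyl isomerases, which turn peptide bonds before proline, 1 fell and 0 rose against Control on the deposited scale. Of all genes, 19.4% fell and 3.65% rose in that comparison. Ppib had 369.6, 353 and 368 FPKM in Control, 375, 377 and 329 after RSPO2, 394, 322 and 323 after BMP2 and 165, 246 and 254 after both proteins, in replicate order. Ppib (cyclophilin B) is part of the complex that modifies and folds type I procollagen. The BMP2+RSPO2 libraries lay below the other 9 by a wide gap, and replicate 1 was the lowest of the 3. The mean of 222 ± 49.4 FPKM against 363 ± 9.09 in Control (SD, n = 3) gave a log2 change of -0.74 (SE 0.17, limma adjusted p = 0.011), and the call held in all 12 fits that left out 1 library. After median-of-ratios scaling the change was -0.46 (adjusted p = 0.0499), and without BMP2+RSPO2 replicate 1 it was -0.54 on the deposited scale (adjusted p = 0.00707) and -0.28 after rescaling (adjusted p = 0.0533).

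Fkbp10 measured 172, 195 and 184 FPKM in Control replicates 1, 2 and 3, 153, 182 and 183 under RSPO2, 215, 202 and 191 under BMP2 and 180.2, 271 and 276 under the combination. Fkbp10 (FKBP65), whose loss causes brittle bone, was high in BMP2+RSPO2 replicates 2 and 3, while replicate 1 lay within the Control range. The change against Control of 0.37 did not pass the test (SE 0.16, adjusted p = 0.117). It was called after median-of-ratios scaling (0.66, adjusted p = 0.0197) and without BMP2+RSPO2 replicate 1 (0.57, adjusted p = 0.00469). Fkbp7, a further ER-resident FK506-binding protein, ranged from 90.3 to 121 FPKM over all libraries and had a log2 change of -0.09 against Control (adjusted p = 0.64). It read 0.20 after median-of-ratios scaling of all libraries, and 0.03 on the deposited scale without BMP2+RSPO2 replicate 1. After quantile normalization without that library it read 0.37 (limma adjusted p = 0.0276). Its direction thus depended on the scale and on that library.

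**Figure D2:**
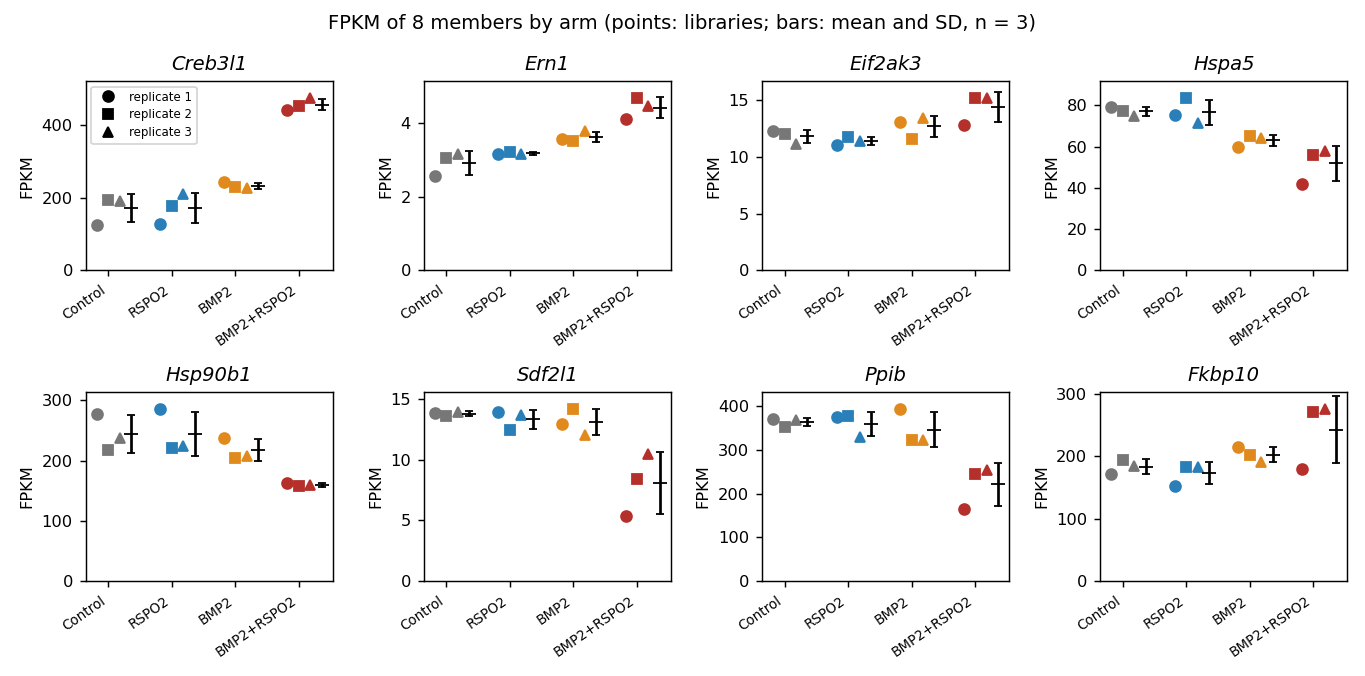
FPKM (vertical axes, from 0) of 8 members in the 4 arms (horizontal axes), with circles, squares and triangles for replicates 1, 2 and 3 and black bars for the mean and SD of the 3 libraries. Creb3l1 stands at 442 to 474 FPKM with both proteins against at most 242.4 elsewhere, Hspa5, Hsp90b1, Sdf2l1 and Ppib are lowest with both proteins, and Fkbp10 splits by replicate in that arm.

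The sensor and transcription factor branch held the only member rises against Control on the deposited scale, 2 of its 6 members. Of all genes, 3.65% rose and 19.4% fell there. For Creb3l1, the Control libraries read 126, 194 and 192.5 FPKM, the RSPO2 libraries 128, 177 and 210.3, the BMP2 libraries 242, 230.5 and 226 and the BMP2+RSPO2 libraries 442, 454 and 474, in replicate order. Creb3l1 encodes OASIS, described above. The 3 BMP2+RSPO2 libraries lay far above the other 9, the BMP2 libraries lay above all Control and RSPO2 libraries, and replicate 1 was the lowest in both Control and RSPO2. The mean rose from 171 ± 38.9 FPKM in Control to 457 ± 16.3 (SD, n = 3), a ratio of 2.67 and a log2 change of 1.44 (SE 0.20, limma adjusted p = 0.00114).

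Creb3l1 was also the only member called against BMP2 alone, where it rose by 0.97 (SE 0.20, limma adjusted p = 0.0298), from 233 ± 8.52 FPKM. Of all genes, 4.38% were called in that comparison (0.641% rose and 3.74% fell), and 2.78% of the members. In 5 members the BMP2+RSPO2 libraries lay wholly above those of BMP2 and in 8 wholly below (13.9% and 22.2%, against 4.97% and 28.6% of all genes), and 12 had an unadjusted p under 0.05. The call was kept after both rescalings (1.18, adjusted p = 0.0281, with median-of-ratios scaling, where 2.42% of all genes were called, 1.28% up and 1.13% down). It ended in 6 of the 12 fits that left out 1 library, with adjusted p up to 0.106: those without RSPO2 replicate 2, any of the 3 BMP2 replicates, or BMP2+RSPO2 replicate 2 or 3. Against Control and against RSPO2, the rise of Creb3l1 was called in all 12 such fits.

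In replicate order, Ern1 stood at 2.55, 3.04 and 3.15 FPKM in Control, 3.15, 3.21 and 3.16 under RSPO2, 3.57, 3.51 and 3.77 under BMP2 and 4.12, 4.67 and 4.46 under both. Ern1 (IRE1) is the sensor that splices Xbp1 mRNA, and its BMP2+RSPO2 libraries lay above all others and its BMP2 libraries above those of Control and RSPO2. The rise against Control was 0.47 (SE 0.10, limma adjusted p = 0.0088), and 0.70 after median-of-ratios scaling (adjusted p = 0.00256). Eif2ak3 had 12.3, 12.0 and 11.1 FPKM in Control, 11.1, 11.75 and 11.4 after RSPO2, 13.05, 11.6 and 13.4 after BMP2 and 12.8, 15.15 and 15.15 after both proteins, in replicate order. Eif2ak3 (PERK), the kinase that slows translation under ER stress, had BMP2+RSPO2 replicates 2 and 3 above all other libraries and replicate 1 within the BMP2 range. It rose against RSPO2 (0.31, SE 0.10, limma adjusted p = 0.0447), a call kept in 1 of 12 fits that left out 1 library, the one without BMP2+RSPO2 replicate 1. Against Control it did not pass on the deposited scale (0.26, adjusted p = 0.0792) and rose after median-of-ratios scaling (0.53, adjusted p = 0.00348).

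Atf6 measured 7.46, 7.85 and 7.58 FPKM in Control replicates 1, 2 and 3, 8.25, 9.67 and 8.71 under RSPO2, 7.73, 9.24 and 8.95 under BMP2 and 8.44, 9.72 and 8.38 under the combination. Atf6, the sensor that is cleaved in the Golgi, was lower in Control than in any library with both proteins and overlapped between the 3 treated arms. Its change of 0.19 against Control did not pass (adjusted p = 0.207), and it was called after median-of-ratios scaling (0.44, adjusted p = 0.0329) and not after quantile normalization (adjusted p = 0.053). For Xbp1, the Control libraries read 48.4, 59.3 and 57.9 FPKM, the RSPO2 libraries 44.8, 67.5 and 62.05, the BMP2 libraries 55.7, 45.6 and 46.45 and the BMP2+RSPO2 libraries 39.3, 62.3 and 60.8, in replicate order. Xbp1, the transcription factor downstream of IRE1, overlapped between all arms, with replicate 1 the lowest library in Control, RSPO2 and BMP2+RSPO2. Its change against Control was -0.05 (95% confidence interval -0.50 to 0.40, adjusted p = 0.866), and a gene-level FPKM does not separate spliced from unspliced Xbp1 mRNA.

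In replicate order, Creb3l2 stood at 11.1, 15.2 and 13.7 FPKM in Control, 10.85, 12.6 and 13.8 under RSPO2, 12.6, 16.1 and 15.9 under BMP2 and 14.5, 17.2 and 16.65 under both. Creb3l2 (BBF2H7), the relative of OASIS that acts on COPII genes in cartilage, overlapped between the arms except that BMP2+RSPO2 lay above RSPO2. It had a log2 change of 0.26 against Control (adjusted p = 0.208) and of 0.36 against RSPO2 (adjusted p = 0.0948), and it was called against RSPO2 after rescaling (0.64, adjusted p = 0.0301). Summed over its 6 genes, the branch took 262 ± 46.9 FPKM in Control, 266 ± 53.4 under RSPO2, 322 ± 11.4 under BMP2 and 555 ± 30.2 under both (SD, n = 3), and most of that sum is Creb3l1.

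**Figure D3:**
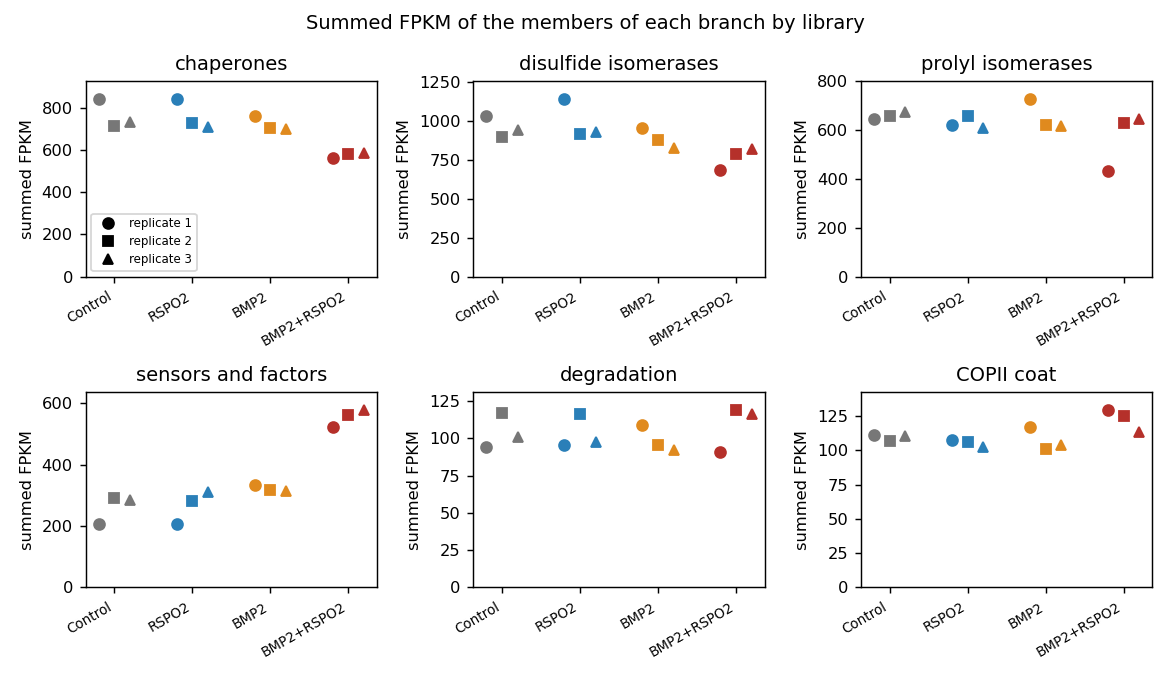
Summed FPKM of the members of 6 branches (vertical axes, from 0) in each library, by arm (horizontal axes), with circles, squares and triangles for replicates 1, 2 and 3. Chaperones stand at 562 to 587 FPKM with both proteins against 702 or more in the other arms, and sensors and factors at 521 to 579.7 against 335.1 or less.

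ER-associated degradation returns misfolded proteins to the cytosol. On the deposited scale its genes gave 0 calls of 6 tested against Control in limma, where 23% of all genes were called. An unadjusted p under 0.05 was seen for 0 of them. Herpud1 had 23.7, 36.7 and 28.2 FPKM in Control, 21.7, 35.9 and 25.9 after RSPO2, 30.1, 24.5 and 21.6 after BMP2 and 32.5, 37.9 and 37.6 after both proteins, in replicate order. Herpud1, a scaffold of the degradation complex, was above every BMP2 library in each BMP2+RSPO2 library but overlapped with Control and RSPO2, where replicate 2 was high. Its changes of 0.30 against Control (adjusted p = 0.311) and 0.50 against BMP2 (adjusted p = 0.162) did not pass. Syvn1 (HRD1), the ubiquitin ligase of the pathway, had a log2 change of 0.23 against Control and was called after median-of-ratios scaling only (0.49, adjusted p = 0.0488, against 0.0761 with quantile normalization). Edem1, which hands over misfolded glycoproteins, had a log2 change of 0.03, with its lowest value of all libraries, 12.66 FPKM, in BMP2+RSPO2 replicate 1. Without that library it was called after median-of-ratios scaling (0.59, adjusted p = 0.0146). Sel1l, the partner of HRD1, had a log2 change of -0.16, and the channel components Derl1 and Derl2 of -0.17 and -0.19.

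Of the 2 subunits of the translocation channel, 1 fell against Control on the deposited scale, where 19.4% of all genes fell. Sec61b measured 84.1, 91.6 and 88.45 FPKM in Control replicates 1, 2 and 3, 83.9, 92.4 and 78.7 under RSPO2, 78.6, 69.9 and 66.45 under BMP2 and 35.8, 60.7 and 73.8 under the combination. Sec61b, the β subunit, fell against Control (-0.68, SE 0.21, limma adjusted p = 0.0413). BMP2+RSPO2 replicate 1 was the lowest library by a wide gap, and replicate 3 lay within the BMP2 range. The call was kept in 2 of the 12 fits that left out 1 library, those without BMP2+RSPO2 replicate 1 (-0.39, adjusted p = 0.0377) or 3, and it ended after rescaling (-0.41, adjusted p = 0.191). Sec61a1, the pore-forming subunit, ranged from 57.85 to 74.3 FPKM over all libraries and had a log2 change of 0.08 (adjusted p = 0.572). It rose after rescaling (0.36, adjusted p = 0.0309).

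The COPII members gave 0 calls of 4 tested against Control on the deposited scale in limma, where 23% of all genes were called. An unadjusted p under 0.05 was seen for 2 of them. For Sec23a, the Control libraries read 44.3, 39.3 and 42.55 FPKM, the RSPO2 libraries 43.0, 38.05 and 37.6, the BMP2 libraries 50.7, 38.7 and 41.0 and the BMP2+RSPO2 libraries 54.5, 50.0 and 47.6, in replicate order. Sec23a, of the inner coat, was higher in every BMP2+RSPO2 library than in any Control or RSPO2 library and overlapped with BMP2. In replicate order, Sec24d stood at 46.6, 49.2 and 50.0 FPKM in Control, 43.65, 48.5 and 48.05 under RSPO2, 45.3, 43.75 and 44.9 under BMP2 and 50.3, 56.5 and 49.0 under both. Sec24d, of the cargo-binding layer that takes up procollagen, lay above all BMP2 and RSPO2 libraries with both proteins and overlapped with Control. Sec23a had a log2 change of 0.26 against Control (adjusted p = 0.129) and Sec24d of 0.09 (adjusted p = 0.483), and after median-of-ratios scaling both rose, by 0.54 (adjusted p = 0.00647) and 0.37 (adjusted p = 0.0356). Sec24a, a paralog of the same layer, had a log2 change of 0.54 (adjusted p = 0.0701), with its highest value, 12.59 FPKM, in BMP2+RSPO2 replicate 1 against 7.38 and 6.42 in the other 2, and was called after rescaling (0.79, adjusted p = 0.0363; 0.50, adjusted p = 0.0234, without that library). Sec23b ranged from 10.3 to 15.5 FPKM and had a log2 change of -0.24 (adjusted p = 0.268).

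**Figure D4:**
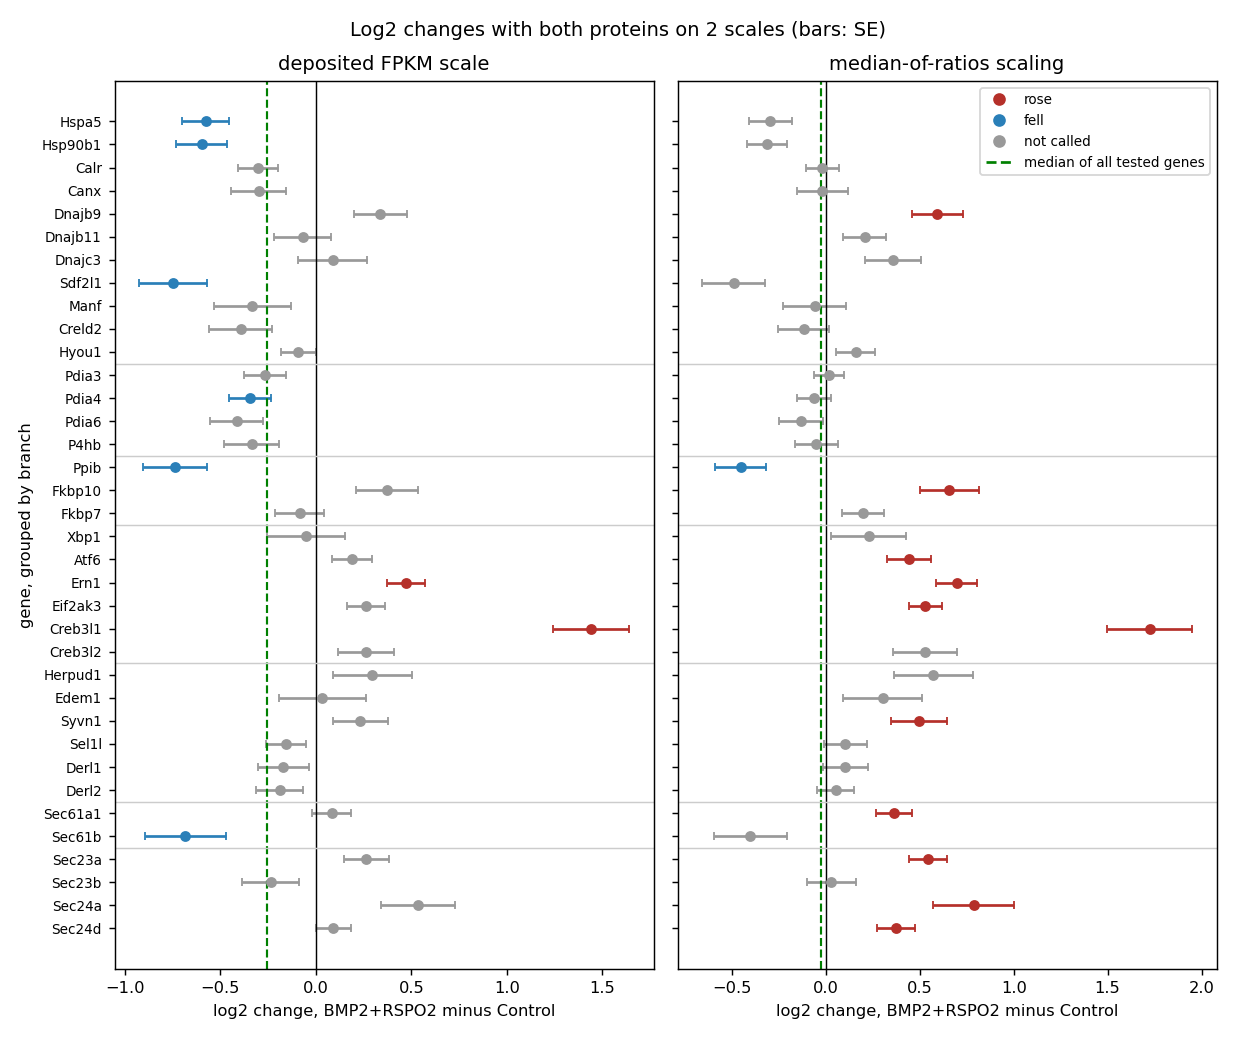
Log2 change of BMP2+RSPO2 against Control (horizontal axes) for the 36 tested members (vertical axis, grouped by branch), on the deposited scale and after median-of-ratios scaling, with bars for the SE, red for rises, blue for falls, grey for members not called and a dashed line at the all-gene median (-0.26 and -0.03). Creb3l1 and Ern1 are red on both scales and Ppib is blue on both, while Hspa5, Hsp90b1, Sdf2l1, Pdia4 and Sec61b are blue on the deposited scale only.

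Against RSPO2, BMP2+RSPO2 gave 9 calls among the members (25%, against 26.1% of all genes), a share near the background. The 3 rises and 6 falls are 8.33% and 16.7% of the members, against 4.32% and 21.8% of all genes, and 6 members lay wholly above RSPO2 and 12 wholly below (16.7% and 33.3%, against 6.22% and 36.1%). Creb3l1 (1.43, adjusted p = 0.000755), Ern1 and Eif2ak3 rose, and Hspa5 (-0.57, adjusted p = 0.00888), Hsp90b1 (-0.59, adjusted p = 0.00986), Sdf2l1 (-0.70, adjusted p = 0.017), Pdia4 (-0.34, adjusted p = 0.0464), P4hb and Ppib (-0.72, adjusted p = 0.0106) fell in limma. This comparison shares the BMP2+RSPO2 libraries with the one against Control, so the 2 are not independent. After median-of-ratios scaling 11 members rose and 0 fell, against 7.75% and 8.11% of all genes (15.9% together), and after quantile normalization 12 rose and 0 fell (all genes 7.59% and 8.22%, 15.8% together). The call of Ern1 (0.37, adjusted p = 0.0211) ended without RSPO2 replicate 1, RSPO2 replicate 2 or BMP2+RSPO2 replicate 2, that of Sdf2l1 without RSPO2 replicate 1 (adjusted p = 0.0539), and that of Pdia4 in 9 of 12 fits, all but those without Control replicate 1, RSPO2 replicate 3 or BMP2+RSPO2 replicate 1.

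What RSPO2 did in the presence of BMP2 was set against what it did alone by the interaction, the difference of its 2 log2 effects. In limma 0 members were called, against 0.294% of all genes (0.00866% higher and 0.286% lower), and 5 had an unadjusted p under 0.05. Creb3l1 stood at 0.96 (95% confidence interval 0.34 to 1.59, adjusted p = 0.207), Ppib at -0.65 (adjusted p = 0.298), Sdf2l1 at -0.63 (adjusted p = 0.345), Hsp90b1 at -0.43 (adjusted p = 0.379) and Calr at -0.38 (adjusted p = 0.34). A difference between the effect of RSPO2 with and without BMP2 was therefore not shown for any member over all 12 libraries. With replicates 2 and 3 only, Creb3l1 (1.02, adjusted p = 0.00805), Fkbp10 (0.53, adjusted p = 0.0181) and Fkbp7 (0.45, adjusted p = 0.0353) were called, where 9.89% of all genes were, 2.54% higher and 7.35% lower.

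Other genes of the pathway, from 8 lists chosen by function, gave 0 rises against Control on the deposited scale, and 7 of these lists gave falls, where 19.4% of all genes fell and 3.65% rose. Calls were 0 rises and 2 falls of 10 in the oligosaccharyltransferase (Tusc3 -0.59, Ddost -0.56), 0 and 2 of 19 in the translocon and signal peptidase (Sec61g -0.85, Sec61a2 -0.47), and 0 and 3 of 12 among other disulfide enzymes (Pdia5 -0.59, Tmx3 -0.48, Tmx4 -0.46). There were 0 and 4 of 18 in other ER-associated degradation (among them Vcp, the segregase that pulls proteins from the ER, -0.55, Ngly1 -0.53 and Selk -0.51), 0 and 1 of 20 in COPII exit (Sar1b -0.42), 0 and 1 of 11 in the COPI coat (Copg2 -0.65), 0 and 1 of 9 in collagen folding and retrieval (Fkbp9 -0.47) and 0 and 0 of 7 in the calnexin cycle (limma, with 1 at an unadjusted p under 0.05). The list medians lay between -0.39 and -0.02, beside -0.26 over all genes. After median-of-ratios scaling the falls of Tusc3 (-0.31) and Sec61g (-0.58) were still called and the others named here were not.

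Rises were also called after that scaling, where 7.34% of all genes rose and 7.35% fell. They were 4 of 20 in COPII exit, among them Ctage5 (0.54, adjusted p = 0.00752), Surf4 (0.43) and Sec31a (0.51), 3 of 19 in the translocon list, 3 of 18 in the degradation list, 1 of 11 in the COPI coat (Arcn1, 0.33), 2 of 9 in collagen folding, P3h1 (0.54), a collagen prolyl 3-hydroxylase, and Kdelr2 (0.53), a receptor that retrieves ER proteins, and 2 of 7 in the calnexin cycle. Lman1, the ER cargo receptor of that last list, rose by 0.56 (adjusted p = 0.00791). On the deposited scale, the same 8 lists gave 3 rises against RSPO2, P3h1 (0.44, adjusted p = 0.0335), Lman1 (0.39, adjusted p = 0.0236) and Sec63 (0.34, adjusted p = 0.0429), a translocation factor. They also gave falls, 5 of 18 in the degradation list, 4 of 12 among other disulfide enzymes, 3 of 19 in the translocon list, 3 of 20 in COPII exit, 2 of 10 in the oligosaccharyltransferase and 1 of 11 in the COPI coat, where 4.32% of all genes rose and 21.8% fell.

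The other stress sensors included 1 rise and 1 fall of 5 against Control, where 3.65% of all genes rose and 19.4% fell. Creb3l3, a relative of OASIS best known from liver, rose from 3.41 ± 1.29 to 9.66 ± 2.10 FPKM (SD, n = 3; log2 change 1.299, limma adjusted p = 0.0051) and kept its call after rescaling (1.54, adjusted p = 0.0034). Atf6b, the paralog of Atf6, fell from 26.6 ± 2.09 to 18.9 ± 2.11 FPKM (-0.47, adjusted p = 0.0104) and was not called after rescaling. A list drawn up for the PERK branch held 9 genes: Atf4, Ddit3, Ppp1r15a, Ppp1r15b, Trib3, Atf3, Chac1, Sesn2 and Nupr1. Whether PERK acts on them in these cells was not tested. Of these 9, 0 were called by limma over all 12 libraries in any of the 6 comparisons. In each comparison 0 to 2 had an unadjusted p under 0.05. All 9 read lower with BMP2 than in Control (median -0.58) and all 9 higher with both proteins than with BMP2 (median 0.47), 2 comparisons that share the BMP2 libraries. With replicates 2 and 3 only, 5 of the 9 fell with BMP2, among them Trib3 (-2.09, adjusted p = 0.0354), Ddit3 (-1.36, adjusted p = 0.0374) and Nupr1 (-1.31, adjusted p = 0.0373). Of the 11190 genes in that fit, 433 rose and 534 fell with BMP2 (8.64% together). In the same fit 6 rose against BMP2, among them Chac1 (2.16, adjusted p = 0.0184), Nupr1 (1.78, adjusted p = 0.00768) and Atf4 (0.69, adjusted p = 0.0352). Against BMP2, 614 of the 11190 genes rose and 1901 fell (22.5% together). Also with replicates 2 and 3 only, Sesn2 fell against Control (-0.40, limma adjusted p = 0.0409). There 848 of all genes rose and 3156 fell (35.8% together). Sesn2 and Ddit3 fell against RSPO2 in the same fit, where 917 of all genes rose and 3373 fell (38.3% together). Ddit3 (CHOP), the pro-apoptotic factor of that branch, measured 29.8 ± 14.6 FPKM in Control and 19.2 ± 4.34 with both proteins (SD, n = 3; adjusted p = 0.402 over all libraries), and Atf4 had a log2 change of 0.06 against Control (adjusted p = 0.897).

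The log2 changes of 12 genes for secreted cargo ran from -2.70 to 2.03 against Control, beside -0.75 to 1.44 among the 36 members. Col1a1, the main chain of type I collagen, rose from 5581 ± 1359 to 11887 ± 1146 FPKM with both proteins against Control (SD, n = 3; log2 change 1.12, limma adjusted p = 0.00961). Ibsp, a bone matrix protein, rose by 2.03 (adjusted p = 0.000741), and Col3a1, the chain of type III collagen, fell by 2.70 on the log2 scale (adjusted p = 2.85e-05) and Col12a1 by 2.29 (adjusted p = 0.000539). Of the 12 cargo genes, 4 rose and 4 fell on the deposited scale, and 5 rose and 4 fell after median-of-ratios scaling (all genes 3.65% and 19.4%, then 7.34% and 7.35%). After quantile normalization 2 rose, Col5a2 and Ibsp, and 4 fell (all genes 6.93% and 7.15%), and Col1a1 was not called there. That normalization gives genes of equal rank the same value in every library, which can shrink changes of the highest genes. Col1a1 read 3935 to 12887 FPKM over all libraries, so the missing call there does not decide whether it rose. After median-of-ratios scaling its change was 1.40 (limma adjusted p = 0.00841). The members as a whole summed to 3007 ± 68.7 FPKM in Control and 2825 ± 257 with both proteins (SD, n = 3).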

How the data were processed

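RNA of 12 libraries was measured by poly(A) sequencing. The submitters' processing notes name cutadapt 1.10, HISAT2 2.0, StringTie 1.3.4, FastQC 0.10.1 and edgeR (no version), without their roles. The authors deposited 1 FPKM value per gene and library. The authors also deposited p-values and q-values, 1 of each per gene, whose comparison and test are not given in the sources used here, and neither was used. The notes name GRCm38 and mm10, while the gene identifiers follow the C57BL/6NJ annotation, so no gene coordinates are given. Promoter windows are RefSeq's on GRCm38.p6.

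From the deposited FPKM, log2(FPKM + 1) was computed, genes at 1 FPKM or more in at least 3 libraries were kept, and limma 3.58.1 (R 4.3.3) fitted a single model of the 4 arms over the 12 libraries, with 8 residual and 2.5 prior degrees of freedom and a variance prior that follows the mean. The fit was also run on simulated data with independent noise for each gene. That simulation held no outlying library, no arm-wide shift and no deviation shared by same-numbered replicates. It could therefore not check how these bear on the calls. Tests are two-sided, adjusted by Benjamini-Hochberg within each of 6 comparisons, with calls at an adjusted p under 0.05. The pseudocount of 1 pulls changes of low genes toward 0, and low FPKM carry an unknown counting error because depth is unknown. Per-library values were given for called members and for chosen anchors of each branch, and the other members by range. From each further list, up to 3 called genes with the smallest p were named, and Col1a1, Ddit3, Atf4, and the genes named after rescaling, were picked with their values known. Members and lists were chosen with earlier results of these data known. Whether quantification used strand is not given in the sources used here. Alternatives were another pseudocount, 2 other filters, 2 rescalings, a replicate block, replicates 2 and 3 only, leaving out each library, and fits on 2 arms.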

Additional observations from a re-analysis of the deposited data

How the results depend on the processing

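Counts of called members depended on which libraries were in the fit, and the share of all genes called moved too. Leaving out 1 library at a time gave 6 to 12 calls against Control (8 with all), 0 to 4 against BMP2 (1 with all) and 4 to 11 against RSPO2 (9 with all), with 0 throughout for RSPO2 alone, BMP2 alone and the interaction; of all genes 13.9% to 24%, 0.521% to 6.21% and 16% to 26.6% were called. The 4 calls against BMP2 came without BMP2+RSPO2 replicate 1, and the counts of 4, 5 and 5 against RSPO2 came without RSPO2 replicate 1, RSPO2 replicate 2 and BMP2+RSPO2 replicate 2. Fits on only the 2 groups compared gave 2 calls against Control, 0 against BMP2 and 1 against RSPO2 (all genes 10.1%, 0.303% and 10.7%). With replicates 2 and 3 only, the calls were 14, 12 and 16, with 3 for the interaction and 1 for BMP2 alone (Xbp1, -0.34), where 35.8%, 22.5%, 38.3%, 9.89% and 8.64% of all genes were called. Against BMP2, a pseudocount of 0.1 gave 2 calls, no filter 0, and a minimum of 5 FPKM 3 (all genes 4.67%, 1.4% and 7.44%).

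Both rescalings turned Pdia4 toward 0 or beyond: with quantile normalization it read 0.021 against Control and 0.040 against RSPO2. Some further settings were chosen after seeing the data. Without BMP2+RSPO2 replicate 1, median-of-ratios scaling gave 4 calls against BMP2 and quantile normalization 3 (all genes 4.36% and 3.8%). Fkbp7 read 0.37 against Control with quantile normalization in that setting. The cause of these shifts was not tested.

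The replicate numbers were checked for pairing: correlations of same-numbered deviations ran from -0.12 to 0.63, not all above 0.1, although 10 of 12 libraries correlated best with their own number. With the replicate block, calls were 11 against Control, 6 against BMP2 and 14 against RSPO2 (all genes 33.7%, 14.8% and 36%), and without BMP2+RSPO2 replicate 1 the block gave 13, 8 and 15, with 1 for BMP2 alone (all genes 34.4%, 16.5%, 36.8% and 8.79%). With the block, Sesn2 of the PERK branch list fell against Control (-0.54, limma adjusted p = 0.0341) and RSPO2 (-0.76, adjusted p = 0.00874). Chac1 of that list rose against BMP2 (adjusted p = 0.0356).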

Other observations

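Chaperones of the cytosol, which fold proteins that do not enter the ER, also read lower with both proteins. Of 10 tested, 0 rose and 4 fell against Control, where 3.65% of all genes rose and 19.4% fell. Among the falls were Cct5, a subunit of the TRiC chaperonin (-0.68, limma adjusted p = 0.011), St13 (-0.38, adjusted p = 0.0224) and Hsp90ab1, the constitutive cytosolic Hsp90 (-0.44, adjusted p = 0.0248). Their median was -0.35, beside -0.30 for the 11 ER chaperones and -0.26 for all genes tested. After median-of-ratios scaling 1 of the 10, Cct5, was still called (-0.40, adjusted p = 0.0462).

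Replicate 1 read higher than the mean of the other replicates in all 4 arms for 8 of the 36 members, or 22.2%, against 20.5% of all genes tested. It was higher in none of the arms for 4 members, or 11.1%, against 15% of all genes. In exactly 1 arm it was higher for 12 of the 36 members, against 17.8% of all genes. Higher values in 2 arms were seen for 5 members, against 19.3% of all genes, and in 3 arms for 7, against 27.5%.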
